A study of Homo sapiens with 3 samples.

Results

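The UGT2B genes studied here were UGT2B7, UGT2B10, UGT2B11, UGT2B15, UGT2B17 and UGT2B28, 6 of the 33423 genes listed in the files. They were taken by name, and their levels were read in every library. Single-cell RNA-seq was done by Drop-seq, in which a cell shares a droplet with a barcoded bead and each captured mRNA molecule gets a unique molecular identifier (UMI). Both cell lines, LNCaP and VCaP, come from prostate cancer and are labelled sensitive to enzalutamide (ENZ), an antiandrogen drug. The LNCaP-ENZ168 library was made from LNCaP kept in 10 µM ENZ for 168 h. Of the VCaP libraries, VCaP-ENZ48 had 10 µM ENZ for 48 h and VCaP parental only the vehicle, 0.1% DMSO, for 48 h. The lines were grown in different media, each with 10% FBS. Each group was 1 library of 1 culture, so differences between groups could not be set against replicates or tested. No LNCaP library in vehicle was analysed here, so cell line, medium and time in ENZ cannot be told apart for LNCaP-ENZ168.

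UGT2B enzymes sit in the membrane of the endoplasmic reticulum and join glucuronic acid from UDP-glucuronate to steroids, bile acids and drugs, which makes them soluble in water and ready for export. UGT2B15, UGT2B17 and UGT2B28 take androgens and their metabolites as substrates, and in prostate cells they clear dihydrotestosterone and its reduced products. Androgens are known to repress UGT2B15 and UGT2B17 in LNCaP cells. UGT2B7, UGT2B10 and UGT2B11 are known mainly from liver and other tissues, with UGT2B7 acting on opioids, bile acids and steroids and UGT2B10 on the nitrogen of amines.

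The 6 genes lay within 757878 bases of chromosome 4 (GRCh38, 68537173 to 69295050). UGT2B17 lay at 68537173 to 68576413 and UGT2B15 at 68646597 to 68670652, both on the minus strand and 70183 bases apart. UGT2B10 lay at 68815994 to 68832023 and UGT2B7 at 69051363 to 69112987, both on the plus strand. UGT2B11 lay at 69199951 to 69214748 on the minus strand, where a long noncoding RNA gene overlaps its span on the other strand, and UGT2B28 at 69280475 to 69295050 on the plus strand. The sources used here do not say whether the counting used strand, so UMIs of UGT2B11 could include that noncoding RNA. The span of UGT2B7 overlaps an unprocessed pseudogene on its own strand, where strand could not separate reads. Whether either overlap reaches exons was not examined.

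The members are near copies of each other, which bears on how well their reads can be separated. The last 60 coding bases of each reference transcript, stop codon included, are shown because they separate the pair UGT2B17 and UGT2B15 from the other members. Capitals mark the 15 positions at which the 6 are not all the same.
UGT2B17: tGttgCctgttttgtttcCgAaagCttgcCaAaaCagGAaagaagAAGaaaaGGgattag
UGT2B15: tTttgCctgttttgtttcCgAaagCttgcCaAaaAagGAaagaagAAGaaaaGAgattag
UGT2B10: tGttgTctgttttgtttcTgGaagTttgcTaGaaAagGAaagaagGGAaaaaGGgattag
UGT2B7: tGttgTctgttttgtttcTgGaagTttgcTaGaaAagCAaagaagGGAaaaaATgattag
UGT2B11: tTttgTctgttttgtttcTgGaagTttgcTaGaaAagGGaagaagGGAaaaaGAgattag
UGT2B28: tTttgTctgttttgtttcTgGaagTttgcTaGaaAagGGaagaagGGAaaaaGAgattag
UGT2B17 and UGT2B15 differed from each other at 3 of these 60 positions, and UGT2B15 differed from UGT2B11 at 10. UGT2B11 and UGT2B28 were identical over this stretch, so a read within it could not be assigned to either. Over the whole coding sequence UGT2B15 and UGT2B17 were 96.5% identical and UGT2B11 and UGT2B28 97.0%. The identity of UGT2B15 or UGT2B17 with any of the other 4 members was between 84.1 and 85.5%.

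Drop-seq captures transcripts by their poly(A) tails, so the end of the transcript matters most for the assignment of reads. Of the 951 windows of 50 bases in the last 1000 bases of the UGT2B17 transcript, 170 (17.9%) occurred unchanged in a transcript of another gene, and 167 of them in UGT2B15. For UGT2B15 it was 139 windows (14.6%), 132 of them shared with UGT2B17. In the last 400 bases, which give 351 windows, UGT2B17 shared 0 and UGT2B15 shared 6. UGT2B10 shared 0 of its 951 windows. UGT2B7 shared 103 (10.8%) and UGT2B11 284 (29.9%). UGT2B28 had the least unique end, with 360 shared windows (37.9%), 134 of them among its last 351. The read length is not given in the sources used here, and 50 bases was a chosen length.

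**Figure D1:**
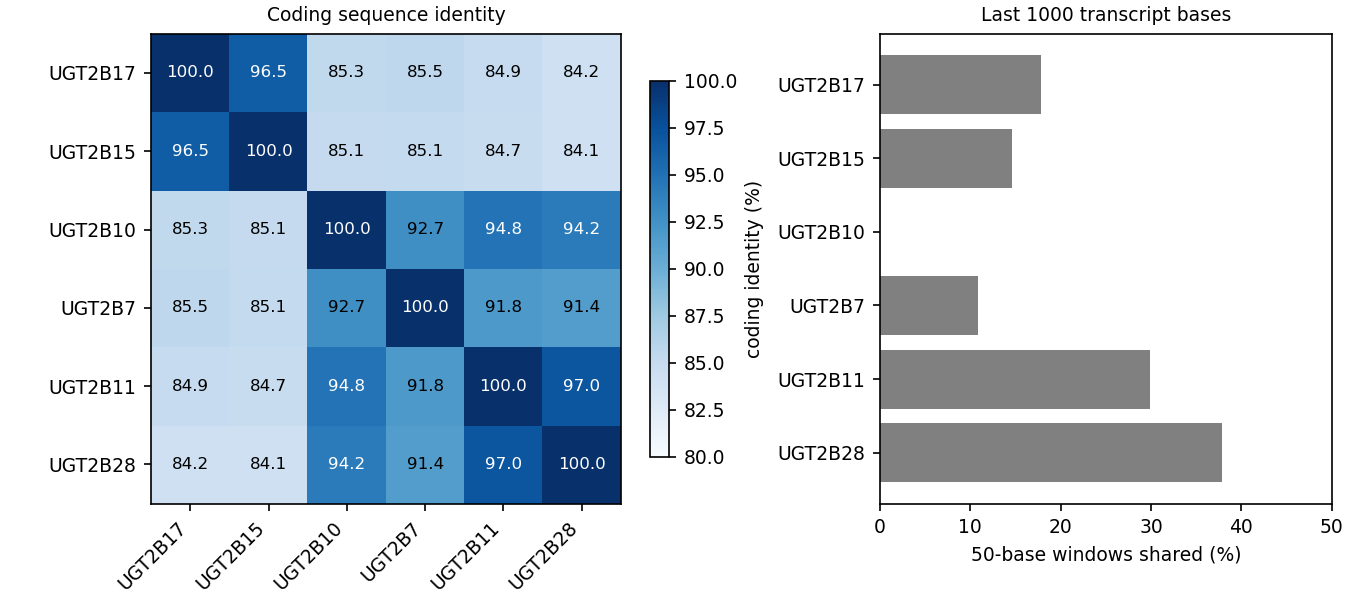
Left, percent identity of the coding sequences for each pair of members, with darker blue for higher identity. Right, percent of 50-base windows in the last 1000 transcript bases that also occur in another gene's transcript. UGT2B17 with UGT2B15 (96.5%) and UGT2B11 with UGT2B28 (97.0%) form the closest pairs, and UGT2B28 has the highest share of shared windows (37.9%).

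The 250 bases before the start were read for the 4 members with a promoter in the RefSeq table (GRCh38.p14) and are shown because androgens and FOXA1, a forkhead transcription factor, are described regulators of this family. UGT2B15 was read at chr4:68670653-68670902 (minus strand), UGT2B10 at chr4:68815744-68815993 (plus), UGT2B11 at chr4:69214749-69214998 (minus) and UGT2B7 at chr4:69096224-69096473 (plus). The UGT2B7 window lies inside the span given above, since RefSeq and Gencode use different starts for this gene. Capitals mark matches to motifs, searched on both strands. The motifs reported here were the palindromic androgen response element, a single arm of it (AGAACA), the FOXA motifs TGTTTAC and TGTTTGC, and TATAAA.
UGT2B15: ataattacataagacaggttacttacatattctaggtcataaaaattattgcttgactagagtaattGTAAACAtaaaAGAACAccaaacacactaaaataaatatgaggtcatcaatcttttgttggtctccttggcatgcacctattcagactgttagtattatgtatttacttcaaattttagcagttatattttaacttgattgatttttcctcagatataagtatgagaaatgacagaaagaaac
UGT2B10: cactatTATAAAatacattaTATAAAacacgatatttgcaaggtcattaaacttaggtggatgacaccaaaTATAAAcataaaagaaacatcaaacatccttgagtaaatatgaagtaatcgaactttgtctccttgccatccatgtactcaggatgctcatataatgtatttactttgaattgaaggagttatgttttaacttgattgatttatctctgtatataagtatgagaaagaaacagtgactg
UGT2B11: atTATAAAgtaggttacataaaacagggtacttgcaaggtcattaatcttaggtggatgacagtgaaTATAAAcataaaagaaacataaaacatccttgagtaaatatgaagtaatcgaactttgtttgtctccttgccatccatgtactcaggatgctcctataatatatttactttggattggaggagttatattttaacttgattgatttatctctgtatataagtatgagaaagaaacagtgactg
UGT2B7: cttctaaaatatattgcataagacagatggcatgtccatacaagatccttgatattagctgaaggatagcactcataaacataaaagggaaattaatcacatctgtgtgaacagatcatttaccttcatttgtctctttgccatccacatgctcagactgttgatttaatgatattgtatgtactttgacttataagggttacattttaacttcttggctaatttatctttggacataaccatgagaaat
UGT2B15 held 1 arm AGAACA, starting 172 bases before the start, and 1 FOXA motif as GTAAACA, starting 183 bases before the start. Among all 27305 promoters of the same length, 12.4% held that arm on either strand and 2.98% held TGTTTAC or its complement. UGT2B10 held 3 matches to TATAAA and UGT2B11 held 2, all at least 179 bases before the start, and 11.1% of all promoters held one. The UGT2B7 window held none of these. No member's window held the full androgen response element, which was in 1 of the 27305 promoters. A match of letters is a description of the window and not a binding site. UGT2B10 and UGT2B11 were 91.6% identical over these 250 bases, and UGT2B15 was 62.8 to 72.8% identical to the other 3.

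Barcodes were kept as cells from 300 genes and 500 UMIs upwards, unless more than 25% of their UMIs were mitochondrial. LNCaP-ENZ168 then had 944 cells, VCaP parental 997 and VCaP-ENZ48 947. In that order the libraries held 6313283, 19515202 and 14301287 UMIs, with medians of 5389, 17817 and 11224 UMIs per cell. A level below is in CPM, a gene's summed UMIs scaled to a library of 1e+06 UMIs, with an exact Poisson 95% interval that covers counting error only. UMIs were not divided by transcript length, since each captured transcript gives 1 UMI. ERG, which VCaP expresses from a gene fusion, had 0 UMIs in LNCaP-ENZ168, 2052 in VCaP parental and 816 in VCaP-ENZ48, and PPP2R2A had 2954, 1 and 0, so the lines were separate as labelled. Each pair of libraries shared 1 barcode. Many barcodes ended in the letter N and not in a base, namely 205 in LNCaP-ENZ168, 859 in VCaP parental and 820 in VCaP-ENZ48. The main ratios are also given for each kind of barcode.

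LNCaP-ENZ168 cells expressed UGT2B17 and UGT2B15 at high levels, and both VCaP libraries held few UMIs of any member. UGT2B17, the androgen-clearing enzyme with the broadest reach over testosterone and dihydrotestosterone, had 3572 UMIs in LNCaP-ENZ168 (566 CPM, 95% interval 547 to 585). It had 55 UMIs in VCaP parental (2.82 CPM, 2.12 to 3.67) and 16 in VCaP-ENZ48 (1.12 CPM, 0.639 to 1.82). LNCaP-ENZ168 was high, and the intervals of the 3 libraries did not overlap.

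UGT2B15, which prefers dihydrotestosterone and its reduced product androstanediol, had 2216 UMIs in LNCaP-ENZ168 (351 CPM, 337 to 366). In VCaP parental it had 184 UMIs (9.43 CPM, 8.12 to 10.9) and in VCaP-ENZ48 71 UMIs (4.96 CPM, 3.88 to 6.26). The order of the libraries was the one seen for UGT2B17, with no overlap of intervals.

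The other members had 0 to 32 UMIs in a library. The limit of detection was 3 UMIs, or 0.475 CPM in LNCaP-ENZ168, 0.154 CPM in VCaP parental and 0.210 CPM in VCaP-ENZ48. UGT2B10 had 30 UMIs in LNCaP-ENZ168 (4.75 CPM, 3.21 to 6.78), 7 in VCaP parental (0.359 CPM) and 0 in VCaP-ENZ48. UGT2B11 had 32 UMIs in LNCaP-ENZ168 (5.07 CPM, 3.47 to 7.16) and 2 in each VCaP library. UGT2B28, which acts on androgens in the prostate, had 6 UMIs in LNCaP-ENZ168 (0.950 CPM), 0 in VCaP parental and 1 in VCaP-ENZ48. UGT2B7 was the member with more UMIs in a VCaP library than in LNCaP-ENZ168: 3 in LNCaP-ENZ168 (0.475 CPM, 0.0980 to 1.39), 19 in VCaP parental (0.974 CPM, 0.586 to 1.52) and 0 in VCaP-ENZ48. Its intervals in LNCaP-ENZ168 and VCaP parental overlapped, so their order is not resolved.

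**Figure D2:**
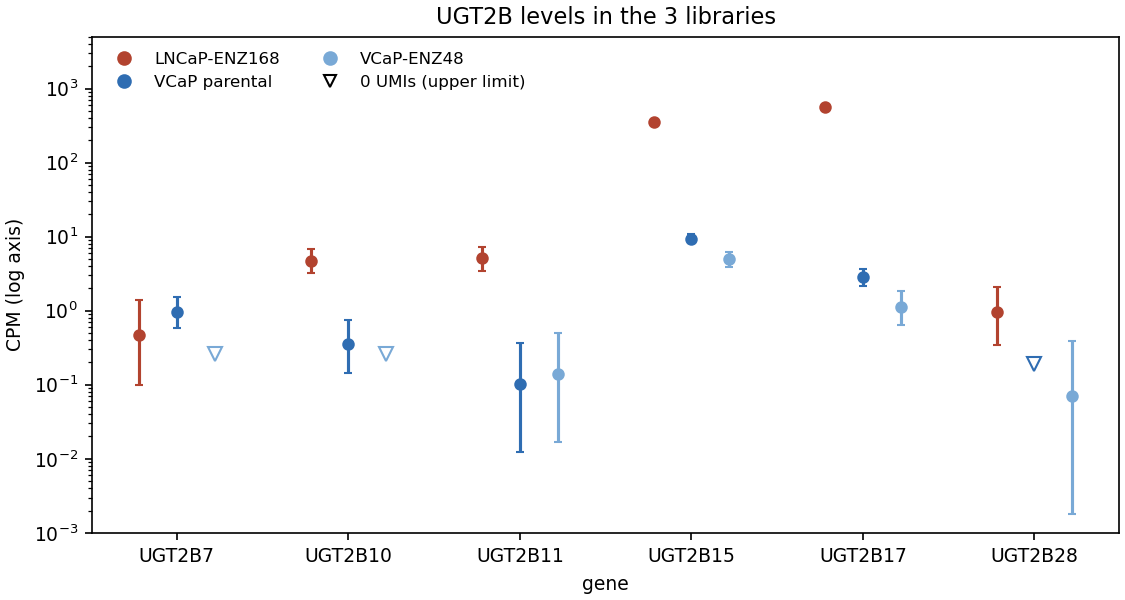
Level of each of the 6 members in the 3 libraries, in CPM on a log axis, with exact Poisson 95% intervals (1 library per group). Open triangles mark 0 UMIs, drawn at the upper end of the interval. UGT2B15 and UGT2B17 in LNCaP-ENZ168, at 351 and 566 CPM, stand above every other point, the highest of which is UGT2B15 in VCaP parental at 9.43 CPM.

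The balance between UGT2B15 and UGT2B17 turned over between LNCaP-ENZ168 and both VCaP libraries. Of the UMIs of this pair, UGT2B15 made up 38.3% in LNCaP-ENZ168 (exact Clopper-Pearson 95% interval 37.0 to 39.6%), 77.0% (71.1 to 82.2%) for VCaP parental and 81.6% (71.9 to 89.1%) for VCaP-ENZ48. UGT2B17 was therefore the leading member in LNCaP-ENZ168 and UGT2B15 the leading member in both VCaP libraries, whose shares overlapped. Below the pair in LNCaP-ENZ168, UGT2B11 and UGT2B10 did not differ beyond their intervals, nor did UGT2B28 and UGT2B7. In VCaP parental UGT2B7 came next and its interval overlapped that of UGT2B10. UGT2B15 and UGT2B17 together can share reads in their coding ends, as shown above, and a misassigned read within the pair would move this share and not their sum.

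VCaP-ENZ48 was set against VCaP parental, which compares 1 library after 48 h of ENZ with 1 library in vehicle. The sum of the 6 members was 267 UMIs in VCaP parental (13.7 CPM, 12.1 to 15.4) and 90 in VCaP-ENZ48 (6.29 CPM, 5.06 to 7.74). The ratio was 0.460 (exact conditional 95% interval 0.358 to 0.586), or 2.17-fold lower in VCaP-ENZ48, and the log2 ratio of CPM + 1 was -1.01. UGT2B15 was lower with a ratio of 0.527 (0.395 to 0.696) and UGT2B17 with 0.397 (0.212 to 0.703). UGT2B7, with 0 UMIs in VCaP-ENZ48, was at least 4.64-fold lower, and UGT2B10 was at least 1.71-fold lower, both with VCaP-ENZ48 set to 3 UMIs. The exact conditional intervals, which also count the error of VCaP parental, began at 3.42-fold and 1.06-fold lower. UGT2B11 and UGT2B28, with 2 against 2 and 1 against 0 UMIs, could not be compared at this depth.

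No member reached a mean of 10 CPM over the VCaP pair, the minimum for the count of all genes. Among the 7729 genes that did, 6.77% were 2-fold or more lower in VCaP-ENZ48, 8.19% were 2-fold or more higher, and the median log2 ratio was -0.07. UGT2B15 and UGT2B17 had means between 1 and 10 CPM, where 4.41% of 7376 genes had a CPM ratio of 0.5 or less and 33.4% a ratio of 2 or more. UGT2B17 was past that ratio and UGT2B15 was not.

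The lower level in VCaP-ENZ48 was seen among barcodes that ended in N. Among them the sum was 243 UMIs in VCaP parental and 62 in VCaP-ENZ48, a ratio of 0.367 (0.273 to 0.487). Among barcodes ending in a base, 138 cells in VCaP parental and 127 in VCaP-ENZ48, it was 24 and 28 UMIs. The ratio was 1.26 (0.704 to 2.27), and the log2 ratio of CPM + 1 was 0.30. UGT2B15 alone had 15 and 23 UMIs there, a ratio of 1.66 (0.828 to 3.41), against 0.409 (0.290 to 0.566) among barcodes ending in N. UGT2B17 had 5 and 4 UMIs there, a ratio of 0.864 (0.171 to 4.01), against 0.345 (0.167 to 0.657) among barcodes ending in N. UGT2B7 had 4 and 0 UMIs there. The sum and UGT2B15 thus turned direction between the kinds of barcode and UGT2B17 and UGT2B7 did not. Among barcodes ending in a base, the intervals of the sum, UGT2B15 and UGT2B17 all included a ratio of 1. What the N marks was not tested. This split was chosen after the data were seen.

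Mitotic genes were also lower in VCaP-ENZ48. Of 15 listed mitotic genes 14 reached a mean of 10 CPM, and these 14 were 2-fold or more lower in VCaP-ENZ48, and the list summed to 4221 CPM in VCaP parental and 366 CPM in VCaP-ENZ48. HMMR, a spindle protein, was 16.2-fold lower and CCNB1, the cyclin of mitotic entry, 12.8-fold lower. In VCaP parental the cells high for mitotic genes held the UGT2B sum at 18.6 CPM (78 UMIs, 201 cells) and those without a mitotic UMI at 11.1 CPM (42 UMIs, 208 cells), with overlapping intervals. The part of cell division in the VCaP difference was not tested.

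LNCaP-ENZ168 and VCaP-ENZ48, both under 10 µM ENZ, differed far more. The sum of the 6 members was 5859 UMIs in LNCaP-ENZ168 (928 CPM, 904 to 952) against 90 (6.29 CPM). It was 147-fold higher in LNCaP-ENZ168 (95% interval 119.8 to 184), with a log2 ratio of CPM + 1 of 6.99. UGT2B17 was 506-fold higher (311 to 886) and UGT2B15 70.7-fold higher (55.8 to 90.9). Among barcodes ending in a read base they were 423-fold (165 to 1555) and 45.5-fold higher (30.2 to 71.9), and the sum 98.9-fold (68.4 to 149). UGT2B11 was 36.2-fold higher (9.25 to 312, 2 UMIs in VCaP-ENZ48) and UGT2B10 at least 22.7-fold higher with VCaP-ENZ48 set to 3 UMIs, with an exact conditional interval that began at 17.3-fold. Their means lay between 1 and 10 CPM, where 35.7% of 7408 genes had a CPM ratio of 2 or more and 33.1% a ratio of 0.5 or less. UGT2B28 was at 6 and 1 UMIs, a ratio of 13.6 (1.65 to 625). UGT2B7, at 3 and 0 UMIs, was at or under the limit in both.

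UGT2B15 and UGT2B17 were the members with a mean of at least 10 CPM over this pair, and both were past 2-fold. Of the 8854 genes at that level, 35.5% were 2-fold or more higher in LNCaP-ENZ168, 11.1% were 2-fold or more lower, and the median log2 ratio was 0.65. In CPM, more of these genes were thus higher than lower, a lean that depended on the scaling. The UGT2B sum lay 6.34 above that median on the log2 scale. Under TMM scaling the median moved by -0.55 to 0.10, 17.3% of genes were higher and 17.2% lower, and the UGT2B sum lay 6.37 above the median. The intervals of the single members in VCaP-ENZ48 rest on 16 UMIs for UGT2B17 and 71 for UGT2B15, and these set the precision of both folds.

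**Figure D3:**
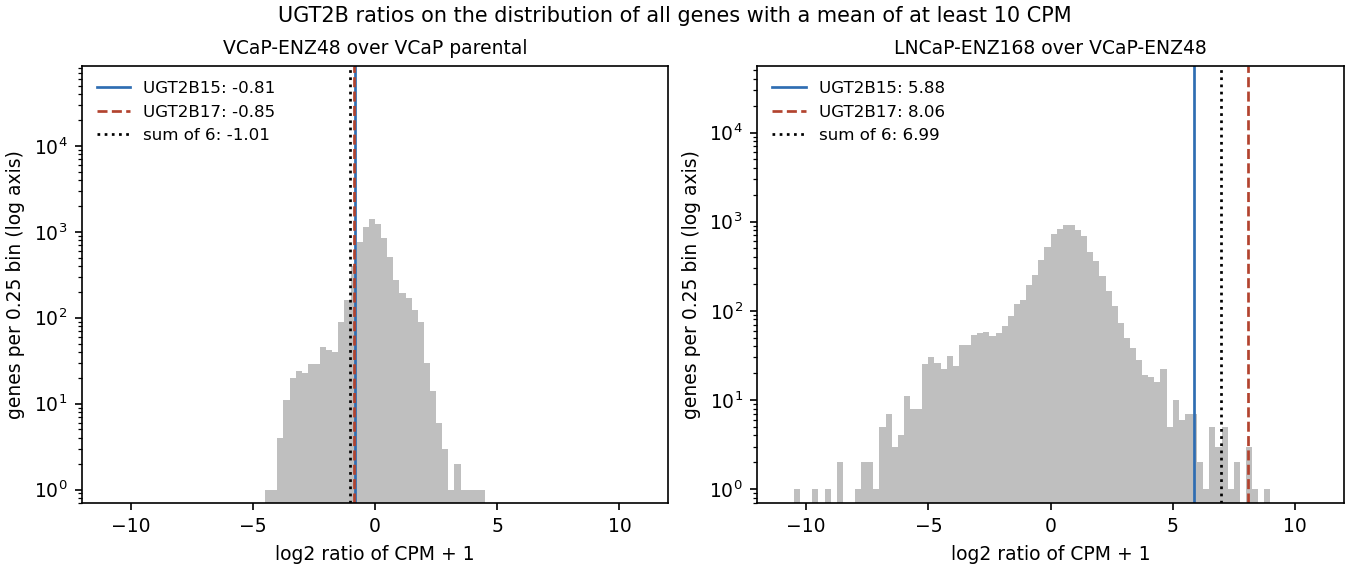
Log2 ratio of CPM + 1 for all genes averaging 10 CPM or more over the pair (grey, number of genes per 0.25 bin on a log axis), for VCaP-ENZ48 over VCaP parental on the left and LNCaP-ENZ168 over VCaP-ENZ48 on the right. Vertical lines mark UGT2B15, UGT2B17 and the sum of the 6 members, which lie at -0.81, -0.85 and -1.01 on the left, although neither gene reached 10 CPM there, and at 5.88, 8.06 and 6.99 in the far right of the other distribution.

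A share of cells depends on depth, so each cell was also thinned at random to 2000 UMIs, which kept 943, 997 and 917 cells in the order of the libraries above. In LNCaP-ENZ168 UGT2B17 was then detected in 49.4% of cells (46.2 to 52.7%) and UGT2B15 in 36.9% (33.8 to 40.1%), and before thinning in 70.3% and 60.7%. In VCaP parental the thinned shares were 0.602% for UGT2B17 and 1.40% for UGT2B15, and in VCaP-ENZ48 0.327% and 1.42%. Before thinning UGT2B15 was in 14.4% of VCaP parental cells and 6.02% of VCaP-ENZ48 cells, and UGT2B17 in 5.02% and 1.27%. The thinned VCaP shares rest on 3 to 14 cells each and give no order. PPP2R2A, at 2954 UMIs in LNCaP-ENZ168, had 1 UMI in VCaP parental and 0 in VCaP-ENZ48, while UGT2B15 had 184 and 71 UMIs there.

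Within LNCaP-ENZ168 the members were spread unevenly over cells. UGT2B17 reached 75 UMIs in 1 cell and UGT2B15 reached 32, with medians of 3 and 2 UMIs among the cells that had any. The 95 cells with the most UMIs of a gene held 44.4% of all UGT2B17 UMIs and 50.1% of all UGT2B15 UMIs. In thinned cells the variance was 2.78 times the mean for UGT2B17 and 2.81 times for UGT2B15. Genes with a mean within 1.5 times that of UGT2B17 had a median ratio of 1.18, and UGT2B17 ranked 3 among those 220 genes. The median was 1.12 for UGT2B15, which ranked 3 among 390 genes. In VCaP parental no cell held more than 4 UMIs of UGT2B15 or 2 of UGT2B17.

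**Figure D4:**
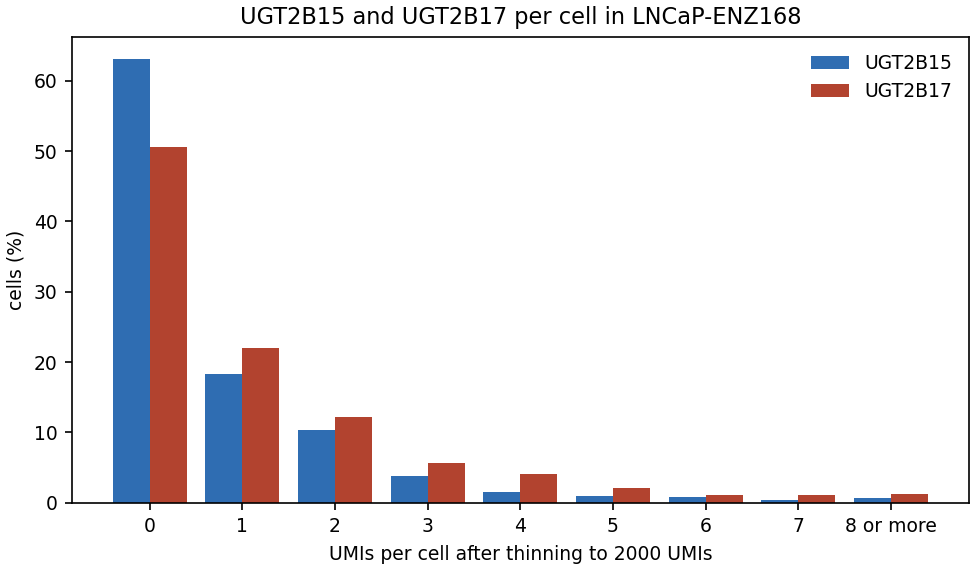
Percent of the 943 thinned LNCaP-ENZ168 cells with 0 to 8 or more UMIs of UGT2B15 (blue) and UGT2B17 (red). The bars at 0 stand at 63.1% and 50.6%, and both genes have a tail, with 0.742% and 1.27% of cells at 8 or more.

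UGT2B15 and UGT2B17 were found in the same LNCaP-ENZ168 cells. Among the 466 thinned cells with UGT2B17, 53.4% had UGT2B15 (48.8 to 58.0%), and among the 477 without it 20.8% did (17.2 to 24.7%). With 4 or more UMIs of UGT2B17 the share was 79.1% (69.3 to 86.9%, 91 cells). Only 1 cell had 4 or more UMIs of UGT2B15 and none of UGT2B17, and 19 cells had the reverse. Neither gene was detected in 40.1% of cells. Across the 943 thinned cells of this 1 library, the log counts of both genes had a Pearson r of 0.48 and a Spearman rho of 0.43. Of 6086 genes averaging 0.05 UMIs or more per thinned cell, the next highest r was that of ADGRG6, an adhesion G-protein-coupled receptor, at 0.26 with UGT2B15 and 0.27 with UGT2B17. With 1000 UMIs per cell the next gene was MALAT1, a nuclear noncoding RNA, at 0.19 and 0.22, and a second draw of 2000 UMIs gave another gene for UGT2B17. The lowest r was that of GAS5, a host of small nucleolar RNAs, at -0.18 with UGT2B15 and that of the ribosomal protein gene RPS4X at -0.23 with UGT2B17. These lowest genes changed with the setting too. With 1000 UMIs per cell they were RPS14 for UGT2B15 and NAP1L1 for UGT2B17, and the second draw gave RPS3 for UGT2B17. The cells share a library and a depth, and reads misassigned between both genes would add to this value. How much of it they give was not tested. These measures were chosen after the data were seen.

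The summed levels of the members also differed between groups of LNCaP-ENZ168 cells split on other measures. In the 315 shallowest cells UGT2B17 was at 696 CPM (650 to 745) and UGT2B15 at 467 CPM (429 to 507), against 524 (500 to 549) and 310 CPM (292 to 329) in the 314 deepest. The thinned shares of cells did not separate these groups, at 52.9% and 50.3% for UGT2B17 and 41.4% (35.9 to 47.1%) and 34.4% (29.2 to 39.9%) for UGT2B15. Cells high for MME, the membrane endopeptidase neprilysin, held UGT2B17 at 781 CPM (735 to 829) and UGT2B15 at 488 CPM (452 to 526), in 213 cells with a median of 5164 UMIs. The 35 cells with no MME UMI held 469 (388 to 563) and 298 CPM (234 to 375), at a median of 5641 UMIs. The median depths of both groups were close, and the counting intervals of both genes did not overlap. These intervals leave out the uneven spread over cells, so they are too narrow for a group of 35 cells. The thinned shares overlapped, at 58.2% (51.3 to 64.9%) against 48.6% (31.4 to 66.0%) for UGT2B17 and 40.8% (34.2 to 47.8%) against 34.3% (19.1 to 52.2%) for UGT2B15. No order is read from the MME split.

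Cells high for mitotic genes had the UGT2B sum at 990.4 CPM (945 to 1038, 251 cells) and cells without a mitotic UMI at 859 CPM (828 to 892, 488 cells). UGT2B15 differed beyond its interval, at 387 against 315 CPM, and the intervals of UGT2B17, 546 to 617 and 514 to 565 CPM, overlapped. Cells high for androgen-induced genes had the sum at 1033 CPM (985 to 1084, 256 cells), against 730 CPM (657 to 808, 66 cells) in those with none. The share of thinned cells with any member went the other way there, at 52.0% and 59.1%, so no order is read from that split. In VCaP parental the cells high for these genes held the sum at 7.69 CPM (5.33 to 10.7, 34 UMIs, 232 cells), against 13.7 CPM in the whole library. In VCaP-ENZ48 they held it at 4.68 CPM (2.42 to 8.18, 12 UMIs, 202 cells), against 6.29 CPM in the whole library. By barcode ending in LNCaP-ENZ168, UGT2B17 was at 575 CPM with a base and 529 CPM with N, and UGT2B15 at 355 and 334 CPM. Cells are not replicates, and none of these splits was tested.

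**Figure D5:**
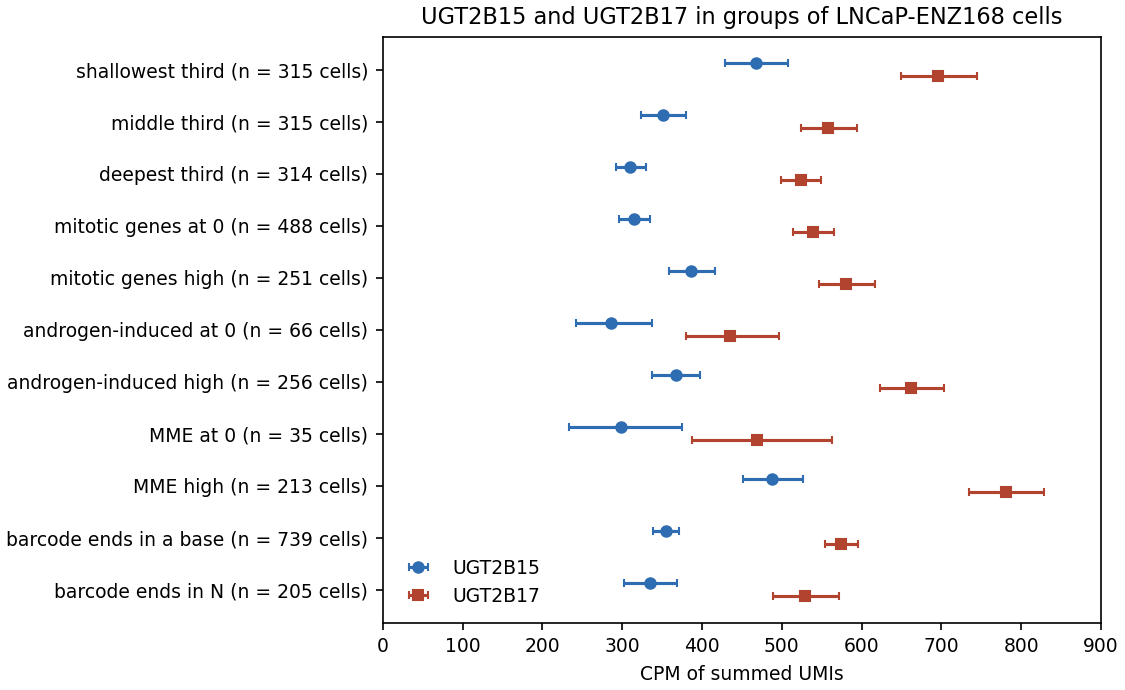
Level of UGT2B15 (blue circles) and UGT2B17 (red squares) in groups of LNCaP-ENZ168 cells, in CPM of the UMIs summed over the group, with exact Poisson 95% intervals and the number of cells. UGT2B17 lies above UGT2B15 in every group, and both have their highest level in the MME-high cells, at 781 and 488 CPM.

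Of the other UGT2B genes in the files UGT2B4 had the most UMIs. UGT2B4, a bile acid and phenol glucuronidating enzyme of liver, had 3 UMIs in LNCaP-ENZ168, 75 in VCaP parental (3.84 CPM, 3.02 to 4.82) and 6 in VCaP-ENZ48 (0.420 CPM, 0.154 to 0.913). It was 9.16-fold lower in VCaP-ENZ48 than in VCaP parental. UGT2B4 thus had more UMIs than UGT2B17 in VCaP parental. The pseudogenes UGT2B24P, UGT2B27P and UGT2B29P had at most 2 UMIs in any library. A list of 16 further UGT genes, UGT2B4 among them, had 5 found in the files. A listed gene is called measured here and below if it reached a mean of 10 CPM over the pair. Of these 5 only UGT8 was measured, in the VCaP pair. UGT8, which makes galactosylceramide and is not a glucuronidating enzyme, was at 2.85 CPM in LNCaP-ENZ168, 30.6 in VCaP parental and 13.3 in VCaP-ENZ48. UGT1A1 had at most 2 UMIs in a library, and the UGT1A enzymes share their last exons, so reads there do not belong to 1 of them.

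The genes that serve glucuronidation did not follow UGT2B15 and UGT2B17 as a group. Of the 6 genes of UDP-glucuronate supply and glucuronide cleavage, 4 were measured in each pair. None was past 2-fold in VCaP, and 1 was in LNCaP-ENZ168 over VCaP-ENZ48, UGP2, which makes UDP-glucose, at 2.25-fold higher. In the VCaP pair UGP2 was at 47.8 CPM in VCaP parental and 30.8 in VCaP-ENZ48. SLC35D1, which carries UDP-glucuronate into the endoplasmic reticulum, had 0 UMIs in LNCaP-ENZ168, 156 in VCaP parental (7.99 CPM) and 127 in VCaP-ENZ48 (8.88 CPM). UGDH, which makes the glucuronate donor, was at 41.5 CPM in LNCaP-ENZ168, 87.7 in VCaP parental and 64.3 in VCaP-ENZ48. UGDH was thus lowest in the library where UGT2B15 and UGT2B17 were highest. Of 6 exporters of conjugates 2 were measured and 0 were past 2-fold in either pair, with ABCC4 at 89.7 CPM in LNCaP-ENZ168, 53.1 in VCaP parental and 57.3 in VCaP-ENZ48. ABCC3, another exporter of glucuronides, was under the 10 CPM minimum but had 6 UMIs in VCaP parental (0.307 CPM, 0.113 to 0.669), 44 in VCaP-ENZ48 (3.08 CPM, 2.24 to 4.13) and 0 in LNCaP-ENZ168. Its intervals in the VCaP libraries did not overlap, and it was higher in VCaP-ENZ48 where UGT2B15 and UGT2B17 were lower. Of 7 genes of steroid sulfonation, the other conjugation route, 2 were measured. SULT1A1, a phenol sulfotransferase, was 2.89-fold higher in LNCaP-ENZ168 than in VCaP-ENZ48, and PAPSS1, which makes the sulfate donor, was at 138 CPM in VCaP parental and 145 in VCaP-ENZ48.

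Of 18 genes that convert androgens, 8 were measured in the VCaP pair, with 1 higher and 1 lower past 2-fold. AKR1C3, which reduces androstenedione to testosterone, was at 45.6 CPM in VCaP parental and 103 in VCaP-ENZ48, and HSD17B6, which oxidises androstanediol back towards dihydrotestosterone, at 19.8 and 8.81 CPM. Of the 7 measured between LNCaP-ENZ168 and VCaP-ENZ48, 3 were higher and 2 lower in LNCaP-ENZ168. AKR1C3 was 10.7-fold lower there, at 9.66 CPM, and HSD17B11 6.16-fold lower. SRD5A3, a steroid reductase family member that acts in dolichol synthesis, was 6.09-fold higher and HSD17B10, a mitochondrial dehydrogenase, 4.28-fold higher.

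Among 9 regulators described for UGT genes, 0 were past 2-fold in either pair, of 2 and 3 measured. FOXA1 was at 153 CPM in LNCaP-ENZ168, 124 in VCaP parental and 143 in VCaP-ENZ48.

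Androgen-induced genes gave no single direction beside the UGT2B genes. In the VCaP pair 9 of 10 were measured, 0 were higher and 3 lower past 2-fold. SLC45A3, a prostate membrane transporter, was 4.19-fold lower in VCaP-ENZ48, FKBP5, a chaperone of steroid receptors, 2.81-fold lower and PMEPA1 2.16-fold lower. KLK2 was within 2-fold, at 1554 CPM in VCaP parental and 3053 in VCaP-ENZ48. Of the 10 measured between LNCaP-ENZ168 and VCaP-ENZ48, 3 were higher and 5 lower in LNCaP-ENZ168. KLK2 was 112.7-fold lower there, ACPP, prostatic acid phosphatase, 46.6-fold lower and TRPM8, a cold-activated channel, 89.6-fold lower. KLK3 was 8.42-fold higher in LNCaP-ENZ168, at 91.9 against 10.9 CPM. Of 14 mitotic genes measured in this pair, 12 were higher in LNCaP-ENZ168 and 0 lower.

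The cells had prostate markers, and some markers of liver and stroma were present too. All 8 luminal prostate markers had UMIs in every library and summed to 3091 CPM in LNCaP-ENZ168, 3893 in VCaP parental and 6867 in VCaP-ENZ48. In the VCaP pair 7 were measured, of which 3 were 2-fold or more higher in VCaP-ENZ48 and 0 lower. Of 7 hepatocyte markers, listed because liver is the main site of UGT2B expression, 4 had UMIs in LNCaP-ENZ168 and 5 in each VCaP library. They summed to 13.6 CPM in LNCaP-ENZ168, 173 in VCaP parental and 161 in VCaP-ENZ48. ALB, albumin, was at 0.158, 124 and 78.7 CPM, and TTR, transthyretin, at 11.6, 48.4 and 79.9 CPM, in the order LNCaP-ENZ168, VCaP parental and VCaP-ENZ48. SERPINA1 was below 1 CPM in every library, and APOA2 and CYP3A4 had no UMI. The sum, carried by ALB and TTR, was lowest in the library with the most UGT2B15 and UGT2B17. SERPINA1 had 3 to 7 UMIs in a library and APOA1 8 to 22. The intervals of each of these genes overlapped between the libraries, so their order is not resolved. The part of these markers in the UGT2B levels was not tested. Stromal markers summed to 6.81, 21.5 and 26.4 CPM, led in VCaP by LUM, lumican, at 21.0 and 25.2 CPM, immune markers to 0.158, 0.256 and 0.280 CPM, and endothelial markers to 2.06, 0.256 and 0 CPM. A lower level in a summed library can come from fewer cells with a transcript or from less of it per cell, which summed levels cannot separate.

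The genes whose levels lay nearest to UGT2B15 over the 3 libraries, by distance in log2(CPM + 1), were GDF15, BCHE, FBXL17, ITPRID2 and KDM6A, at distances of 0.77 to 1.27. GDF15, a stress-induced growth factor, was at 588 CPM in LNCaP-ENZ168, 11.0 in VCaP parental and 4.61 in VCaP-ENZ48. BCHE, butyrylcholinesterase, was at 202, 8.86 and 4.68 CPM. For UGT2B17 they were ADGRG6, TFPI, NCAM2, FBXL17 and ST3GAL1, at distances of 0.52 to 1.53. ADGRG6 was at 534, 1.69 and 0.979 CPM and TFPI, an inhibitor of coagulation, at 435, 4.77 and 1.26 CPM. FBXL17 was the gene on both lists. With 3 libraries such likeness reflects mainly the contrast between LNCaP-ENZ168 and both VCaP libraries.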

How the data were processed

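Single-cell libraries of LNCaP-ENZ168, VCaP parental and VCaP-ENZ48, 1 each, were analysed. The deposited tables hold unnormalized UMI counts, with genes by cell barcodes. The authors aligned reads to GRCh38 with STAR 2.7.3a, and counted them with Drop-seq tools 2.3.0, Picard 2.18.22 and Gencode 33, expecting 1000 cells. They filtered cells on genes, molecules and mitochondrial reads, with thresholds for these libraries not given in the sources used here. A gene absent from a file was counted as 0. Default counting keeps reads that map to 1 place, so reads shared by near copies are lost or uncertain. Groups came from the labels.

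Ratios are log2 ratios of CPM + 1, or plain ratios with exact conditional intervals. Intervals cover counting error only, and 3 UMIs was the limit that a count of 0 allows. Doublets were not identified. The members and the 14 lists (112 entries, 91 found in the files) were chosen with earlier results of these data known. Of each list the text names up to 4 genes past 2-fold or else the most abundant, with a few others named after their values were seen. Positions and transcripts came from Gencode on GRCh38 in a later version than the authors used. Identities are from global alignments. No protein sequences were used here. Values of some listed genes are not reported here. Steps were tested on simulated data. Alternatives covered the cell filter, barcodes, scaling, pseudocount, expression minimum and thinning. Python 3.11.15 (numpy 2.4.6, pandas 2.3.3, scipy 1.17.1, Biopython 1.88, matplotlib 3.10.9) and R 4.3.3 (edgeR 4.0.16, for TMM factors) were used.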

Additional observations from a re-analysis of the deposited data

Results flagged for a closer look

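Barcodes that failed the cell filter still held UMIs of some members, above the 3 UMIs that a count of 0 allows. In LNCaP-ENZ168 the 56 barcodes left out held 136 UMIs of UGT2B17 (680 CPM, 95% interval 570.1 to 804), 95 of UGT2B15 (475 CPM, 384 to 580.3) and 4 of UGT2B10 (20.0 CPM, 5.45 to 51.2). In the 53 barcodes left out of VCaP-ENZ48, UGT2B15 had 4 UMIs (16.4 CPM, 4.47 to 42.0). The interval of UGT2B15 in the LNCaP-ENZ168 barcodes left out lay above that of the kept cells, and the interval of UGT2B17 overlapped that of the kept cells.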

How the results depend on the processing

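No paired analysis was possible because only 1 library stands behind every group. The sum of the 6 members in VCaP-ENZ48 over VCaP parental, a log2 ratio of -1.01, turned to 0.30 among barcodes ending in a base, and UGT2B15 turned from -0.81 to 0.62; this rests on 24 and 28 UMIs of the sum, and the cause was not tested. The sum in LNCaP-ENZ168 over VCaP-ENZ48, 6.99, was 6.49 with those barcodes, 6.47 under TMM scaling, 6.39 under median-of-ratios scaling and 6.37 with a pseudocount of 5 CPM. The other 21 recomputed values of both sums kept their direction. They lay at -1.30 to -0.73 in the VCaP pair and at 6.75 to 7.18 for LNCaP-ENZ168 over VCaP-ENZ48. The counting intervals of the plain ratios, -1.48 to -0.77 and 6.90 to 7.52 in log2, did not hold all of them. TMM scaling also changed the split of all genes in the VCaP pair, to 5.75% higher and 12.6% lower, and median-of-ratios scaling that of LNCaP-ENZ168 over VCaP-ENZ48 to 14.9% higher and 19.1% lower. The r between UGT2B15 and UGT2B17 ranged from 0.38 to 0.59 over shallower and deeper thinning. Depth limits what can be said of UGT2B11 and UGT2B28 in VCaP, with at most 2 UMIs in a library.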
